A study of Rattus norvegicus with 120 samples.

Results

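The kidney genes described here are a set associated with tubule cells that lose their mature state: vimentin (Vim), the keratins Krt8, Krt18 and Krt19, the hyaluronan receptor Cd44, the transcription factor Sox9, the filamin-binding adaptor Fblim1 and the adhesion molecule Vcam1. The 8 genes were listed by name, with earlier results of these data known, and no measured value enters the rule that picks them. Each was read from a probe set that maps to it alone, and where a gene had several, from the one with the highest mean over all arrays. Of the 8 genes, 7 had such a probe set, and Sox9 was not analysed here. All 7 were among the 10663 genes tested, of 14217 genes measured; a gene was tested if it lay above the filter on dim genes.

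The study measured kidney RNA of 120 male Sprague-Dawley rats, 5 to 7 weeks old before treatment, with 1 Affymetrix Rat 230 2.0 array for each rat. Rats were injected intraperitoneally once a day with cyclosporine A (CsA) at 2.5 or 25 mg/kg, FK506 (tacrolimus) at 0.6 or 6 mg/kg, rapamycin (Rapa) at 1 or 10 mg/kg, or the olive oil vehicle, for 1, 7, 14 or 28 days, and kidneys were taken 24 h after the last dose. The 28 groups of drug, dose and day held 3 to 6 rats, and the title gives the aim as markers for early detection of nephrotoxicity from calcineurin inhibitors. CsA and FK506 are inhibitors of the phosphatase calcineurin, while Rapa inhibits the kinase mTOR; Rapa and FK506 are both macrolides and share an immunophilin as their binding partner in the cell. The RNA came from pieces of whole kidney holding cortex and medulla in unstated amounts, so for every value below fewer cells of a type and less RNA per cell cannot be told apart.

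Differentiated proximal tubule cells of the healthy kidney carry little vimentin, while cells that have lost their brush border and re-entered a less mature state after injury express it. Krt8 and Krt18 form the paired keratin filaments of simple epithelia and are abundant in collecting duct and distal cells, Krt19 is a keratin of ducts and immature epithelia, and all are known to increase in stressed or injured tubules. Cd44 and Vcam1 appear on injured tubule cells, and both are also made elsewhere: Cd44 by leukocytes and Vcam1 by endothelium and parietal cells. Fblim1 (migfilin) links filamin and kindlin to integrin adhesion sites, and Sox9 marks tubule cells during repair.

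The stretches before the transcription starts of 4 members are shown because the results turn on these genes. Krt8 and Fblim1 rose under both calcineurin inhibitors, and Vcam1 fell under Rapa. Fblim1 also passed in Rapa 10 mg/kg at day 28, a call lost without any 1 of 8 rats and in 4 of 10 other settings. Krt18, which passed in no comparison with vehicle, is the filament partner of Krt8. Each stretch is the 250 bases before the annotated start, from RefSeq on the GRCr8 build, 5′ to 3′ on the strand of the gene. Krt8 lies on the minus strand at chr7:135010340-135010589, Krt18 on the plus strand at chr7:135035918-135036167, Fblim1 on the minus strand at chr5:159196817-159197066 and Vcam1 on the minus strand at chr2:206742784-206743033. Capitals mark matches, on either strand, to TATAAA, to GGAAA (the core letters of NFAT sites, the factors that calcineurin activates), to TGANTCA (the AP-1 motif) and to the NF-kB consensus.
Krt8: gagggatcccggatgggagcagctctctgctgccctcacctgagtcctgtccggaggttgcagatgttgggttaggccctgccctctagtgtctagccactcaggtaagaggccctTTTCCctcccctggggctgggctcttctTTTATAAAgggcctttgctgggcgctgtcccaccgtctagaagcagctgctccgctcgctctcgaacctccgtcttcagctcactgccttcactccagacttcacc
Krt18: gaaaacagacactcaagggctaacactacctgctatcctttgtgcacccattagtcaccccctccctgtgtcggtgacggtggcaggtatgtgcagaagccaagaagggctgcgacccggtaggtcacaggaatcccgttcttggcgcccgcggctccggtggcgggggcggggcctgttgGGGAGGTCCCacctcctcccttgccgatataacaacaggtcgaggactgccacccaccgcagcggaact
Fblim1: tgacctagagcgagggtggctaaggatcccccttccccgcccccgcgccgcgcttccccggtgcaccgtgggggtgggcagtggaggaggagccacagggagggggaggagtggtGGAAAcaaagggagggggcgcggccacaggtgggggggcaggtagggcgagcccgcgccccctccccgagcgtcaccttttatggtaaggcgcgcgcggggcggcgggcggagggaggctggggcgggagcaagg
Vcam1: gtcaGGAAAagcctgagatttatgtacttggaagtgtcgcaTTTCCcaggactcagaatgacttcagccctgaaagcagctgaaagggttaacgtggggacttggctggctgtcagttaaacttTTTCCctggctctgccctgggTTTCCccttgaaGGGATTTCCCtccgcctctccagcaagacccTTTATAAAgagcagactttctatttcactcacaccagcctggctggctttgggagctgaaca

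Promoter entries were at hand for 6 of the 8 members. TATAAA was found in 3 of the 6 windows (Vim, Krt8 and Vcam1) and in 12.9% of all 33469 promoters of the same length. GGAAA was found in 4 of 6 and in 56.9% of all promoters. The NF-kB consensus was found in 3 of 6 (Vim, Krt18 and Vcam1) and in 6.33% of all promoters, and in Vcam1 it holds 1 of the 5 GGAAA matches within it. TGANTCA was found in 0 of 6 and in 6.34% of all. Krt8 and Krt18 start 25.8 kb apart on chromosome 7 and are read from opposite strands. A match is a description of letters in this window and not a binding site.

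Levels below are log2(intensity + 16) after quantile normalization, so each fold understates the change of dim genes, and they are not compared between genes. Differences come from limma, fitted to all 120 arrays and all tested genes, with p-values adjusted over the 10663 genes of each comparison. A gene is said to have risen or fallen where that adjusted p was under 0.05. The arrays were alike in brightness, with medians of 52.0 to 86.1 intensity units, and no pair was identical. The proximal tubule markers were on the arrays, with group means of 13.6 to 13.8 on the log2 scale for Slc34a1, a phosphate transporter of these cells. At day 28 the summed intensity of the 6 proximal tubule markers, before normalization, ran from 31146 to 38609 in CsA 25 mg/kg. It ran from 36932 to 42412 in FK506 6 mg/kg and from 42413 to 47834 in vehicle. Both groups in which most members rose thus lay below vehicle, FK506 6 mg/kg only narrowly. Such sums also lay below vehicle in groups where no member rose. They ran from 36084 to 38970, against 41285 to 49665 in vehicle, in CsA 25 mg/kg at day 7. In FK506 6 mg/kg at day 14 they ran from 41679 to 43097, against 43837 to 49134 in vehicle. The part of proximal tubule cells in the member changes was not tested. One array stood apart: CsA 25 mg/kg day 28 replicate 3 held all 5273 values listed at 0 (17.0% of its probe sets), and it correlated at 0.88 on average with the arrays of its group. No member was at 0 on it. On 4 arrays the liver gene Alb exceeded a log2 level of 12, 2 of them from CsA 25 mg/kg at day 1.

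Against vehicle, 18 of the 168 pairs of member and comparison passed the threshold, 14 higher and 4 lower, over 9 of 24 comparisons. For comparison, 5.22% of all such pairs over all genes tested passed. The changes that rose concentrated at day 28 of CsA 25 mg/kg and FK506 6 mg/kg, and those that fell were all Vcam1 under Rapa. At an unadjusted p under 0.05, 43 pairs passed, but the share over all genes at that threshold was not counted, so the 5.22% is no yardstick for it. Fblim1 rose in 5 comparisons, Vim, Krt8 and Cd44 in 3 each, and Vcam1 fell in 4, while Krt18 and Krt19 passed in 0 of 24.

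**Figure D1:**
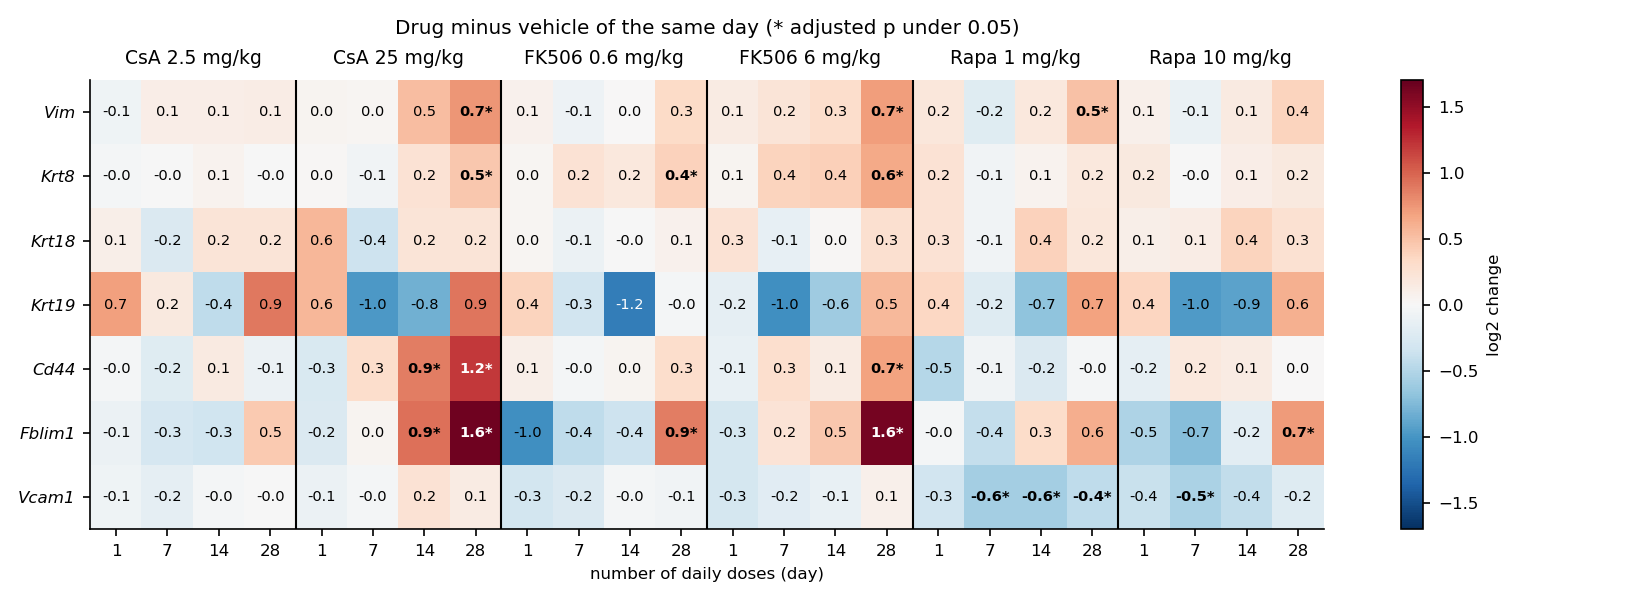
Log2 change against the vehicle group of the same day for the 7 members (rows) in the 24 comparisons of drug, dose and day (columns); a star marks an adjusted p under 0.05. The stars lie mainly in the rows of Vim, Krt8, Cd44 and Fblim1 at day 28 of both calcineurin inhibitors at the high dose, and under Rapa for Vcam1.

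After 28 doses of CsA at 25 mg/kg, Vim, Krt8, Cd44 and Fblim1 rose, which is 4 of 7 members where 21.1% of all genes were called and 10.5% were called higher. After 28 doses of FK506 at 6 mg/kg the same 4 rose, where 16% of all genes were called and 8.73% called higher. The median log2 change of the 7 members was 0.75 under CsA 25 mg/kg, beside 0.01 over all genes tested, and 0.64 under FK506 6 mg/kg, beside 0.01. All 7 members had a positive change in both groups. The 2 comparisons share their vehicle rats. With the hybridization control level as a covariate, Vim (0.48, adjusted p = 0.104) and Cd44 (0.47, adjusted p = 0.235) lost their calls in FK506 6 mg/kg.

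Vim encodes the intermediate filament of mesenchymal and dedifferentiated cells. At day 28 the log2 levels of its rats were 10.23, 10.29, 10.24 and 11.28 in CsA 25 mg/kg, against 9.66, 9.59, 9.94, 9.83 and 9.79 in vehicle. In FK506 6 mg/kg they were 10.70, 10.19, 10.30, 10.75 and 10.43. Every rat of both drug groups lay above every vehicle rat, and 1 CsA rat lay far above its group. The change was 0.75 (SE 0.17, 1.68-fold, adjusted p = 0.000502) for CsA 25 mg/kg and 0.71 (SE 0.16, 1.64-fold, adjusted p = 0.000637) for FK506 6 mg/kg. Without the highest CsA rat, the CsA change was 0.49 and still passed. Lower doses were less clear: in FK506 0.6 mg/kg the 6 rats ran from a lowest 9.88 over a median 10.03 to a highest 10.51, and the change of 0.32 did not pass (adjusted p = 0.239).

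Krt8 is the type II keratin of simple epithelia. At day 28 its rats had log2 levels of 10.85, 10.99, 10.96 and 11.20 in CsA 25 mg/kg, against 10.59, 10.63, 10.49, 10.46 and 10.54 in vehicle. The FK506 6 mg/kg rats had 11.26, 11.06, 11.15, 11.27 and 11.16, with the group's SD at 0.09. Neither drug group overlapped with vehicle, and the 5 FK506 rats lay close together. The change was 0.46 (SE 0.12, 1.37-fold, adjusted p = 0.0021) for CsA 25 mg/kg and 0.64 (SE 0.11, 1.56-fold, adjusted p = 9.49e-06) for FK506 6 mg/kg. Krt8 also rose at the low FK506 dose, where 4.33% of all genes were called and 2.59% called higher: the FK506 0.6 mg/kg rats ran from 10.61 over a median of 10.92 to 11.25, and the change was 0.40 (SE 0.11, adjusted p = 0.0145). The ranges of FK506 0.6 mg/kg and vehicle touched only at the lowest treated and the highest vehicle rat, and without replicate 2 of the treated group the change was 0.34 and lost its call (adjusted p = 0.0758).

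Krt18, the type I partner that pairs with Krt8 in one filament, did not pass in any comparison with vehicle. Its day 28 rats had log2 levels of 8.27, 8.46, 8.44 and 8.65 in CsA 25 mg/kg and 8.58, 8.24, 8.59, 8.52 and 8.59 in FK506 6 mg/kg, against 8.09, 8.35, 8.16, 8.16 and 8.43 in vehicle. The groups overlapped. The change was 0.22 (95% interval -0.08 to 0.51) for CsA 25 mg/kg and 0.27 (-0.01 to 0.55) for FK506 6 mg/kg. The log2 level of Krt8 minus that of Krt18 on the same array averaged 2.55 in CsA 25 mg/kg and 2.68 in FK506 6 mg/kg, against 2.31 in vehicle. By an exact two-sided permutation test the difference was 0.24 for CsA (p = 0.0159) and 0.37 for FK506 (p = 0.00794). The FK506 value is the smallest p that 5 against 5 rats allow. Adjusted over the 24 comparisons both were 0.19, so neither passed, and 1 p-value of this size could not pass that adjustment alone. The test was chosen after seeing the data. Over the 28 group means, the Pearson correlation of Krt8 with Krt18 was 0.02, a description of groups that share their arrays and normalization.

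The Krt18 change closest to the threshold came at the first dose. Krt18 had log2 levels of 8.44, 8.60, 9.25 and 9.11 in CsA 25 mg/kg at day 1, against 8.20, 8.46, 8.24 and 8.24 in vehicle, a change of 0.56 (adjusted p = 0.0637). The 2 highest of those 4 rats are the ones whose arrays carried high Alb, and without them the change was 0.23. In the same comparison 5 of 7 liver markers were higher, with a median change of 3.24, where 0.675% of all genes were called. Their part in the Krt18 value was not tested beyond leaving out these 2 arrays. Hepatocytes also express Krt8 and Krt18 as their only keratins. Krt8 averaged 10.50 ± 0.20 in CsA 25 mg/kg at day 1 and 10.49 ± 0.23 in vehicle (SD, n = 4 each). This Krt8 value is no test of the part of liver RNA in the Krt18 value.

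Krt19, a keratin of ducts that lacks the usual tail domain, was the most variable member. At day 28 the rats had log2 levels of 6.83, 7.98, 7.95 and 8.67 in CsA 25 mg/kg and 7.25, 7.40, 7.61, 7.41 and 7.79 in FK506 6 mg/kg, against 7.70, 6.45, 7.45, 6.36 and 6.75 in vehicle. Both drug groups overlapped with vehicle. The change was 0.91 (95% interval 0.05 to 1.78, adjusted p = 0.129) for CsA 25 mg/kg and 0.55 (-0.27 to 1.36, adjusted p = 0.406) for FK506 6 mg/kg. Over the 24 comparisons the Krt19 changes ran from -1.18 to 0.91, always with overlapping rats. The vehicle groups themselves averaged 7.77 ± 1.01 at day 1, 8.64 ± 0.59 at day 7, 8.39 ± 0.33 at day 14 (SD, n = 4 each) and 6.94 ± 0.60 at day 28 (SD, n = 5). The vehicle group of day 28 had the lowest of these, and the difference between vehicle rats of day 28 and day 1 was -0.83 (95% interval -1.69 to 0.04, adjusted p = 0.369).

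**Figure D2:**
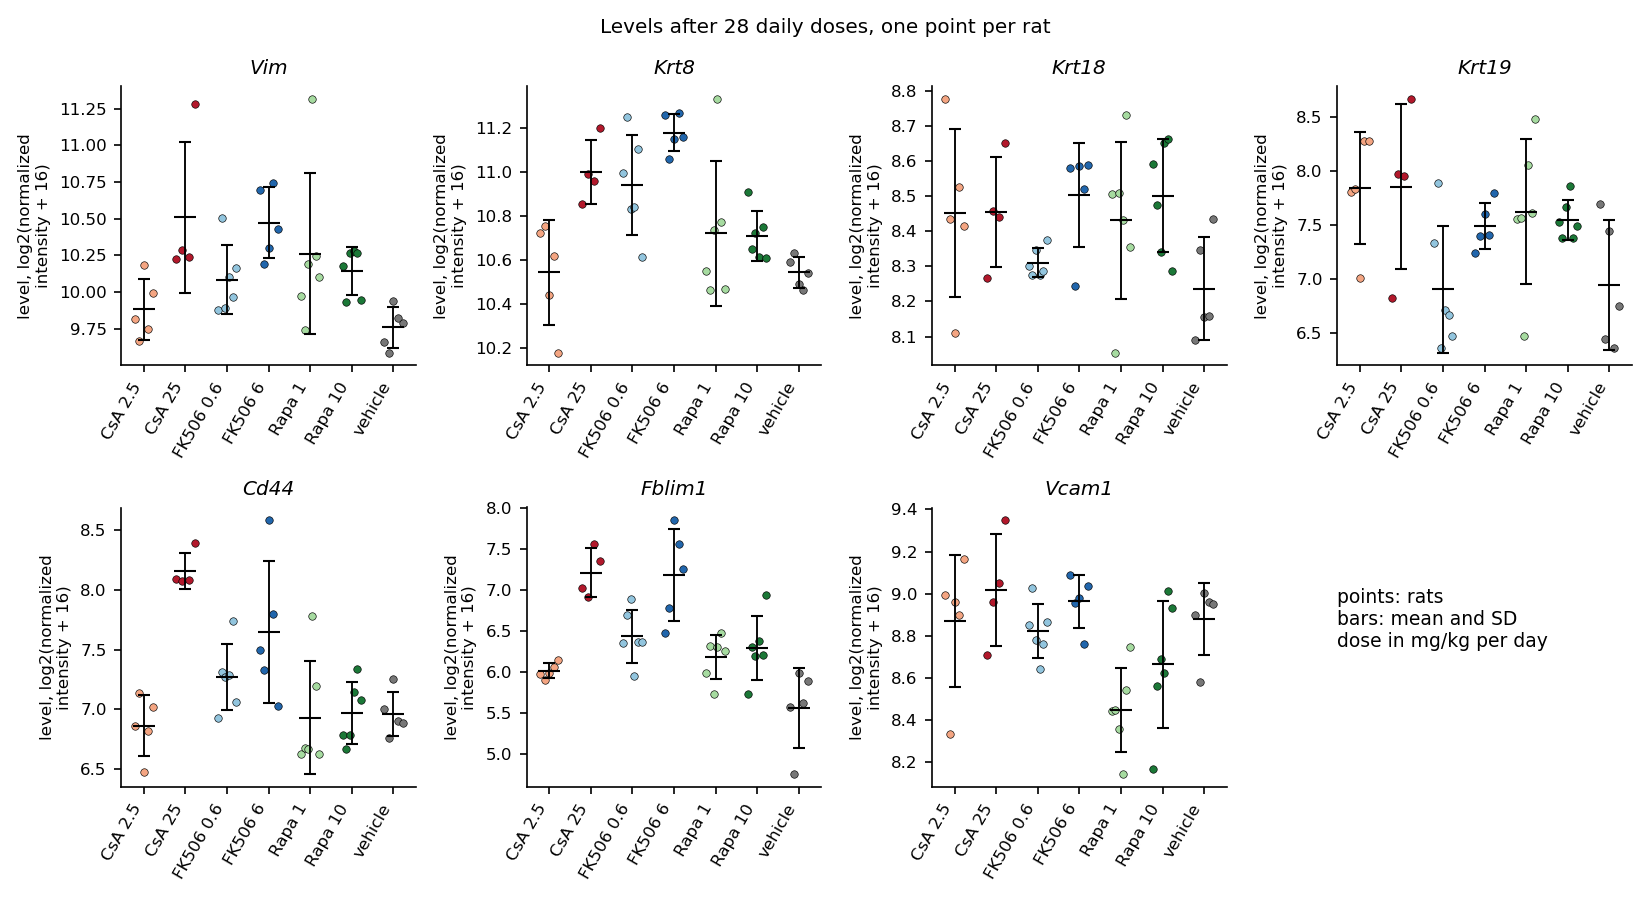
Log2(intensity + 16) of each rat at day 28 for the 7 members, 1 panel each, with CsA 2.5 and 25, FK506 0.6 and 6, Rapa 1 and 10 mg/kg and vehicle along the axis; bars give the group mean and SD. In Vim, Krt8 and Fblim1 all CsA 25 mg/kg and FK506 6 mg/kg rats lie above all vehicle rats, and in Krt18 and Krt19 the groups overlap.

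Cd44, the receptor for hyaluronan and osteopontin on activated epithelium and leukocytes, rose by day 14 under CsA. On that day the CsA 25 mg/kg rats had log2 levels of 7.51, 8.22, 7.64 and 7.67, against 6.81, 7.02, 7.10 and 6.64 in vehicle. The groups did not overlap, and the change was 0.87 (SE 0.22, 1.82-fold, adjusted p = 0.005), in a comparison where 7.89% of all genes were called and 4.75% called higher. At day 28 the CsA 25 mg/kg rats had 8.09, 8.07, 8.08 and 8.39 and the FK506 6 mg/kg rats 7.50, 7.33, 8.58, 7.80 and 7.03, against 7.00, 6.76, 7.26, 6.91 and 6.88 in vehicle. The CsA rats stood wholly above vehicle, while the lowest FK506 rat lay within the vehicle range. The day 28 change was 1.20 (SE 0.21, 2.29-fold, adjusted p = 5.62e-06) for CsA 25 mg/kg and 0.69 (SE 0.19, 1.61-fold, adjusted p = 0.00796) for FK506 6 mg/kg. The FK506 value was 0.45 without the highest rat (replicate 3) and lost its call.

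A second probe set of Cd44, dimmer on average, gave larger changes: 1.53 (adjusted p = 2.1e-05) for CsA 25 mg/kg at day 14, 1.56 (adjusted p = 9.77e-07) at day 28 and 1.16 (adjusted p = 0.000173) for FK506 6 mg/kg at day 28. For Rapa 10 mg/kg at day 28 both probe sets gave 0.01.

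Fblim1, the adaptor between filamin and integrin adhesions, had the largest day 28 changes among the members. At day 28 its rats had log2 levels of 7.02, 6.91, 7.57 and 7.36 in CsA 25 mg/kg and 6.48, 6.79, 7.86, 7.56 and 7.26 in FK506 6 mg/kg, against 5.58, 4.76, 5.99, 5.62 and 5.89 in vehicle. No rat of either drug group overlapped with vehicle. The change was 1.65 (SE 0.29, 3.14-fold, adjusted p = 9.12e-06) for CsA 25 mg/kg and 1.62 (SE 0.27, 3.08-fold, adjusted p = 6.18e-06) for FK506 6 mg/kg. Fblim1 is a dim gene here, at the 30.7th percentile of the mean levels of all genes, with intensities of 5.35 to 223.

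The vehicle level of Fblim1 at day 28 was itself low. It averaged 6.41 ± 0.32 at day 1, 6.49 ± 0.36 at day 7, 5.96 ± 0.30 at day 14 (SD, n = 4 each) and 5.57 ± 0.48 at day 28 (SD, n = 5). Vehicle rats of day 28 differed from those of day 1 by -0.84 (95% interval -1.42 to -0.27, unadjusted p = 0.00458, adjusted p = 0.113), where 2.08% of all genes were called. In CsA 25 mg/kg the mean was 6.17 ± 0.40 at day 1 and 7.22 ± 0.30 at day 28 (SD, n = 4 each). Over time in the vehicle groups, 0 of the 21 pairs of member and day passed in limma, beside 2.11% over all genes. In the same fit 1 pair had an unadjusted p under 0.05, a threshold at which the share over all genes was not counted.

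Weaker calls of Fblim1 were made elsewhere. In CsA 25 mg/kg at day 14 the rats had log2 levels of 6.77, 7.21, 6.51 and 7.07, against 6.13, 5.66, 6.28 and 5.76 in vehicle, without overlap and with a change of 0.93 (SE 0.31, adjusted p = 0.0412). In FK506 0.6 mg/kg at day 28 the 6 rats ran from 5.96 over a median of 6.37 to 6.89, a change of 0.87 (SE 0.26, adjusted p = 0.0336). In Rapa 10 mg/kg at day 28 they ran from 5.74 over 6.26 to 6.94, a change of 0.73 (SE 0.26, adjusted p = 0.0432), where 15.7% of all genes were called and 7.57% called higher. Both day 28 groups overlapped with vehicle, and each of these 3 calls was lost when a single rat was left out, for 5 to 8 rats per call. Of 10 other settings, the call was lost in 5 for CsA 25 mg/kg at day 14, 3 for FK506 0.6 mg/kg and 4 for Rapa 10 mg/kg. An offset of 1 and no quantile normalization were among them for all 3 calls. Over the single rats left out, the change ran from 0.83 to 1.06 in CsA 25 mg/kg at day 14, from 0.67 to 0.98 in FK506 0.6 mg/kg and from 0.53 to 0.84 in Rapa 10 mg/kg at day 28.

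Macrophage and myeloid markers moved beside the rises of Vim, Cd44 and Fblim1. The summed intensity of T lymphocyte markers overlapped with vehicle at day 28. It ran from 346 to 491 in CsA 25 mg/kg and from 340 to 455 in FK506 6 mg/kg, against 374 to 464 in vehicle. Of all genes, 10.5%, 8.73% and 7.57% were called higher at day 28 in CsA 25, FK506 6 and Rapa 10 mg/kg. All 10 macrophage and myeloid markers tested rose in CsA 25 mg/kg at day 28 (median change 1.03) and 8 rose in FK506 6 mg/kg (0.72), while in Rapa 10 mg/kg 1 rose and 1 fell. Their summed intensity ran from 4556 to 9575 in CsA 25 mg/kg, from 3469 to 6556 in FK506 6 mg/kg and from 1978 to 3455 in Rapa 10 mg/kg, against 2208 to 3446 in vehicle. No myeloid marker was listed at 0 outside the array with the 0 values. These markers also rose in CsA 25 mg/kg at day 7, 6 of 10 of them (median 0.84, summed intensity 5721 to 7335, against 2410 to 3957 in vehicle). On that day, when 3.97% of all genes were called, none of Vim, Krt8, Cd44 and Fblim1 passed. At day 14 of CsA 25 mg/kg the summed myeloid intensity ran from 6281 to 8608, against 2869 to 3654 in vehicle. Cd44 and Fblim1 rose on that day. In FK506 6 mg/kg, 0 of 10 myeloid markers were called at days 7 and 14. Fibroblast markers also moved at day 28, with 3 higher and 1 lower in both groups, and 0 of 9 collecting duct markers rose in CsA 25 mg/kg and 1 in FK506 6 mg/kg. The part of these cells in the member changes was not tested.

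Vcam1, the endothelial and tubular ligand of leukocyte integrins and an NF-kB target, did not pass with CsA or FK506 on any day and fell with Rapa. At day 7 the rats had log2 levels of 8.65, 8.40, 8.32 and 8.46 in Rapa 1 mg/kg and 8.67, 8.35, 8.86 and 8.14 in Rapa 10 mg/kg, against 9.29, 8.87, 9.13 and 8.88 in vehicle. Every Rapa rat lay below every vehicle rat. The change was -0.58 (SE 0.16, adjusted p = 0.0173) for Rapa 1 mg/kg, where 4.22% of all genes were called and 2.61% called lower, and -0.53 (adjusted p = 0.0211) for Rapa 10 mg/kg, where 7.3% were called. With single rats left out these changes ran from -0.64 to -0.50 in Rapa 1 mg/kg, where vehicle rats alone were left out and the call was lost without vehicle replicate 1 (adjusted p = 0.0935), and from -0.65 to -0.41 in Rapa 10 mg/kg, which lost it for 4 rats. At day 14 the Rapa 1 mg/kg rats had 8.45, 8.32, 8.38 and 8.12 and the Rapa 10 mg/kg rats 8.79, 8.29, 8.28 and 8.55, against 8.71, 8.89, 9.09 and 8.92 in vehicle. The Rapa 1 mg/kg rats lay below all vehicle rats, and 1 Rapa 10 mg/kg rat lay within the vehicle range.

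The day 14 change of Vcam1 was -0.58 (adjusted p = 0.00969) for Rapa 1 mg/kg, where 9.05% of all genes were called and 4.97% called lower, and -0.42 (adjusted p = 0.0678) for Rapa 10 mg/kg, where 10.5% were called. At day 28 the 6 rats of Rapa 1 mg/kg ran from 8.14 over a median of 8.45 to 8.75, against 8.90, 8.58, 9.01, 8.96 and 8.95 in vehicle, a change of -0.43 (SE 0.13, adjusted p = 0.0248) where 9.85% of all genes were called and 5.09% called lower. The groups overlapped at the lowest vehicle rat. This call was lost without any of 4 rats (changes of -0.51 to -0.37 over the rats left out) and with the hybridization controls as a covariate (-0.33, adjusted p = 0.199). Rapa 10 mg/kg gave -0.22 (adjusted p = 0.301) at day 28. After the first dose the change was -0.33 (adjusted p = 0.285) for Rapa 1 mg/kg and -0.37 (adjusted p = 0.22) for Rapa 10 mg/kg. That lower level was not particular to Rapa: the day 1 mean was 8.84 in both FK506 groups as well. The vehicle group of day 1 averaged 9.15, the highest of the 28 group means. Vcam1 changes were mostly negative in general, with 3 of 24 comparisons positive. No difference between the 2 Rapa doses passed.

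**Figure D3:**
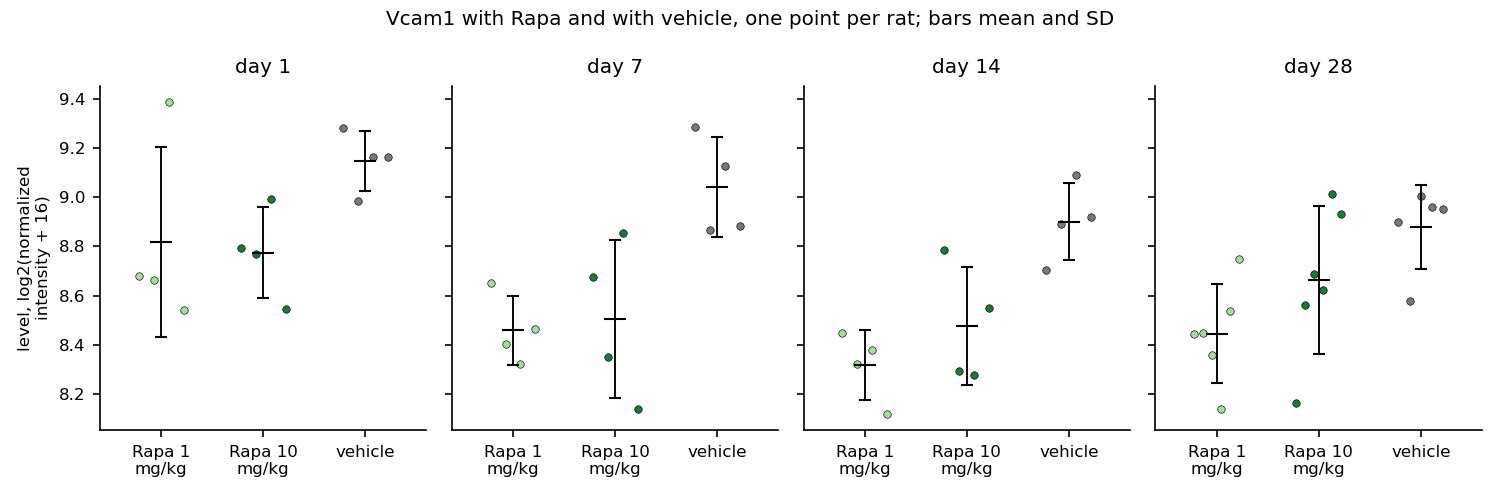
Log2(intensity + 16) of Vcam1 in each rat of Rapa 1 mg/kg, Rapa 10 mg/kg and vehicle by number of daily doses, with group means. At day 7 all 8 Rapa rats lie below all 4 vehicle rats.

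Markers of other cells moved with Vcam1 under Rapa. Of all genes, 4.22% were called in Rapa 1 mg/kg and 7.3% in Rapa 10 mg/kg at day 7, and 9.05% and 10.5% at day 14. Of the 10 macrophage and myeloid markers tested, 2 fell in Rapa 1 mg/kg and 3 in Rapa 10 mg/kg at day 7 (median changes -0.55 and -0.62), and 5 fell at day 14 at each dose (-0.66 and -0.70). Their summed intensity ran from 1856 to 2215 in Rapa 1 mg/kg and from 1964 to 2244 in Rapa 10 mg/kg, against 2410 to 3957 in vehicle at day 7. Of 10 proliferation markers, 6 fell in Rapa 1 mg/kg and 5 in Rapa 10 mg/kg at day 7. Of 9 endothelial markers, 0 were called lower in Rapa 1 mg/kg at days 7 and 14, with median changes of 0.04 on both days. In Rapa 10 mg/kg 1 rose and 0 fell on each of these days, and their summed intensity ran from 7605 to 8419, against 7073 to 7545 in vehicle, at day 7 and from 7691 to 8764, against 7015 to 7490 in vehicle, at day 14. An RNA measure differed as well: the 3′ minus 5′ log2 signal of Gapdh averaged 0.42 in Rapa 1 mg/kg and 0.40 in Rapa 10 mg/kg, against 0.76 in vehicle at day 7. This difference was not particular to Rapa. On that day the signal averaged 0.44 in CsA 25 mg/kg, 0.43 in FK506 0.6 mg/kg and 0.44 in FK506 6 mg/kg, and 0.85 in CsA 2.5 mg/kg. With that measure as a covariate both day 7 calls of Vcam1 were lost, while the changes hardly moved: over all settings with every rat kept they ran from -0.60 to -0.56 in Rapa 1 mg/kg and from -0.55 to -0.51 in Rapa 10 mg/kg. The part of myeloid and dividing cells in the Vcam1 value was not tested.

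The other comparisons with vehicle held few member calls. Vim rose in Rapa 1 mg/kg at day 28, where 4.75% of all genes were called higher, with a change of 0.50 (SE 0.15, adjusted p = 0.0212). The 6 rats ran from 9.74 over 10.15 to 11.32 and overlapped with vehicle. Without the highest rat, replicate 4, the change was 0.29 and lost its call, as it did without vehicle replicate 1 or 2. The Vim call was also lost in a fit to the day 28 arrays alone and with the hybridization control level as a covariate. That level averaged 9.66 in Rapa 1 mg/kg at day 28, against 10.67 in vehicle. In Rapa 10 mg/kg at day 28 the rats ran from 9.93 over 10.22 to 10.28, a change of 0.39 (95% interval 0.08 to 0.69, adjusted p = 0.0722). Krt8 in Rapa 10 mg/kg at day 28 changed by 0.17 (-0.04 to 0.38) and Cd44 by 0.01 (-0.36 to 0.37). The median member change at day 28 was 0.19 for Rapa 1 mg/kg and 0.26 for Rapa 10 mg/kg, beside -0.01 over all genes in both. CsA at 2.5 mg/kg called 0 members on any day, where 0.0656% of all genes were called at day 14 and none on the other days.

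The members passed the threshold at different times. Under CsA 25 mg/kg the day 7 changes were 0.04 for Vim, -0.05 for Krt8, 0.29 for Cd44 and 0.04 for Fblim1, none past the threshold, where 3.97% of all genes were called. At day 14 Cd44 and Fblim1 rose, and Vim at 0.52 did not pass (adjusted p = 0.0528) although its rats did not overlap with vehicle. Under FK506 6 mg/kg, Krt8 had the earliest separation: its change was 0.38 at day 7 (adjusted p = 0.0682) and 0.41 at day 14 (adjusted p = 0.0716). There was no overlap on either day but no call, where 3.2% and 2.68% of all genes were called. How many of all genes lacked such overlap was not counted, here or for Vim. With the 3′ minus 5′ signal of Gapdh as a covariate, the day 7 change of Krt8 was 0.48 and passed (adjusted p = 0.0343).

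The change of the drug effect with time was tested as the effect at day 28 minus the effect at day 1. Of the 21 pairs of member and drug, 5 passed and all were positive, beside 4.6% over all genes. An unadjusted p under 0.05 was reached by 9 pairs, and the share over all genes at that threshold was not counted. Cd44 grew by 1.46 under CsA 25 mg/kg (adjusted p = 0.000836). Fblim1 grew by 1.89 under CsA 25 mg/kg (adjusted p = 0.00259), 1.92 under FK506 6 mg/kg (adjusted p = 0.00286) and 1.25 under Rapa 10 mg/kg (adjusted p = 0.0471). Krt8 grew by 0.59 under FK506 6 mg/kg (adjusted p = 0.0275). With single rats left out, the Krt8 value ran from 0.47 to 0.67 and lost its call for 3 rats, and the Fblim1 value under Rapa ran from 0.90 to 1.40 and lost it for 11. The 3 drugs share the vehicle rats of both days, so the lower day 28 vehicle level of Fblim1 stands in all of its values.

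**Figure D4:**
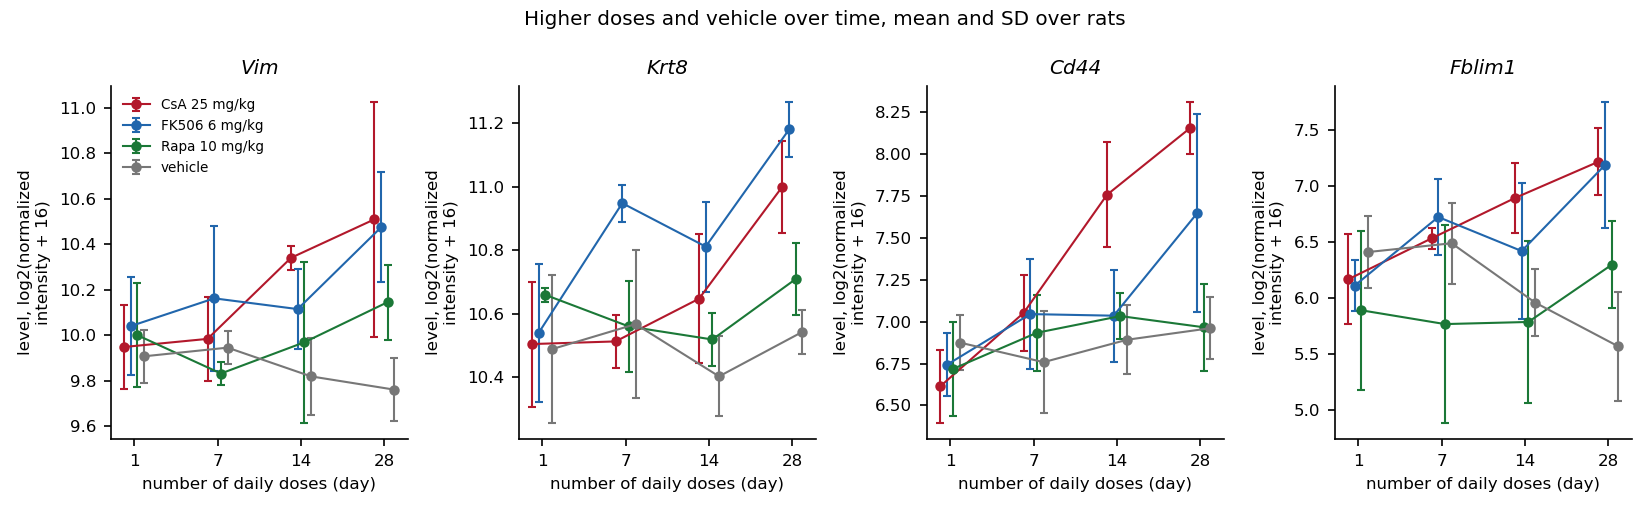
Group mean and SD of log2(intensity + 16) for Vim, Krt8, Cd44 and Fblim1 by number of daily doses in CsA 25 mg/kg, FK506 6 mg/kg, Rapa 10 mg/kg and vehicle. Cd44 in CsA 25 mg/kg lies above vehicle at days 14 and 28, Krt8 in FK506 6 mg/kg at days 7, 14 and 28, and the vehicle mean of Fblim1 is lowest at day 28.

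The high CsA dose was set against the low one with the same 7 members. At day 28, 4 of 7 were higher at 25 than at 2.5 mg/kg, where 18.4% of all genes were called and 8.75% called higher. Vim differed by 0.63 (adjusted p = 0.00445), Krt8 by 0.46 (adjusted p = 0.00253), Cd44 by 1.30 (adjusted p = 1.34e-06) and Fblim1 by 1.20 (adjusted p = 0.0015). At day 14, Cd44 differed by 0.72 (adjusted p = 0.0313) and Fblim1 by 1.27 (adjusted p = 0.00432), where 5.57% were called and 3.85% called higher. None of these 6 contrasts had overlapping rats. They were already picked by their calls, and the share of all genes without overlap was not counted, so this adds no separate support. The Cd44 difference at day 14 ran from 0.57 to 0.80 with single rats left out. It lost its call without CsA 25 mg/kg replicate 2 or 4 and in a fit to the arrays of that day alone (adjusted p up to 0.168 over these). The Vim difference at day 28 was 0.37 without the highest CsA 25 mg/kg rat and lost its call, as it did in a fit to the day 28 arrays alone. For FK506, no member passed between 6 and 0.6 mg/kg at day 28, where 1.62% of all genes were called, and the interval for Fblim1 (0.75) was 0.23 to 1.27. No Rapa dose pair called a member, and 0.122% of all genes were called at day 28. Over all dose pairs 6 of 84 passed, beside 2.42% over all genes.

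The drugs were also set against each other at the high and at the low doses, with 112 pairs of member and comparison, of which 13 passed, beside 6.97% over all genes. Their mg/kg doses differ, and so a difference between drugs also holds a difference in dose. Between CsA 25 mg/kg and FK506 6 mg/kg no member passed on any day, where 0.694% of all genes were called at day 1, 0.938% at day 7, 1.97% at day 14 and 5.7% at day 28. At day 28 the differences were 0.03 (95% interval -0.30 to 0.37) for Vim, -0.18 (-0.41 to 0.05) for Krt8, 0.51 (0.10 to 0.92) for Cd44 and 0.03 (-0.55 to 0.60) for Fblim1. The interval for Cd44 lies above 0, but its adjusted p was 0.144.

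Against Rapa 10 mg/kg, up to 3 of 7 members passed on a given day, and none did at day 1 for either drug or at day 14 for FK506 6 mg/kg. In CsA against Rapa at day 28, where 19.9% of all genes were called and 10.4% called higher, Cd44 was higher by 1.19 (adjusted p = 3.27e-06) and Fblim1 by 0.92 (adjusted p = 0.0116), which without the array that held the 0 values was 0.80 and did not pass (adjusted p = 0.0697). At day 14, where 14.7% were called, Cd44 was higher by 0.72 (adjusted p = 0.0136), Fblim1 by 1.11 (adjusted p = 0.00698) and Vcam1 by 0.66 (adjusted p = 0.00134). At day 7, where 9.43% were called, Krt18 was lower by 0.49 in CsA (adjusted p = 0.0331), with means of 8.21 in CsA and 8.70 in Rapa, and Vcam1 was higher by 0.51 (adjusted p = 0.0256). FK506 6 mg/kg and Rapa 10 mg/kg, both macrolides, differed at day 28 in Krt8 by 0.47 (adjusted p = 0.000944), in Cd44 by 0.68 (adjusted p = 0.00794) and in Fblim1 by 0.89 (adjusted p = 0.015), where 11% of all genes were called and 6.83% called higher.

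At day 7 FK506 exceeded Rapa at those doses in Krt8 by 0.39 (adjusted p = 0.039) and in Fblim1 by 0.96 (adjusted p = 0.0416), where 6.44% of all genes were called. At the low doses 1 of the pairs passed: Vcam1 at day 14 was higher by 0.55 in FK506 0.6 mg/kg than in Rapa 1 mg/kg (adjusted p = 0.015), where 9.21% of all genes were called. With the hybridization controls as a covariate, the 3 differences between FK506 6 and Rapa 10 mg/kg at day 28 were 0.34 for Krt8, 0.45 for Cd44 and 0.67 for Fblim1 and none passed. With single rats left out, 3 of the 12 calls between drugs at the high doses held throughout: Cd44 at day 28 and Vcam1 at day 14 in CsA 25 against Rapa 10 mg/kg, and Krt8 at day 28 in FK506 6 against Rapa 10 mg/kg. The Fblim1 difference between FK506 and Rapa at day 7 varied most, from 0.54 to 1.19. The log2 level of these controls averaged 9.15 in FK506 6 mg/kg at day 28, against 10.67 in vehicle.

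Ordered by group mean, the highest 3 of the 28 groups for Vim were CsA 25 mg/kg at day 28 (10.51), FK506 6 mg/kg at day 28 (10.47) and CsA 25 mg/kg at day 14 (10.34). Fblim1 had the same 3 on top, at 7.22, 7.19 and 6.89, and Cd44 had them at 8.16, 7.65 and 7.76. Krt8 had FK506 6 mg/kg at day 28 (11.18), CsA 25 mg/kg at day 28 (11.00) and FK506 6 mg/kg at day 7 (10.95). The highest for Krt18 was CsA 25 mg/kg at day 1 (8.85), and for Krt19 CsA 2.5 mg/kg at day 7 (8.80) with the day 7 vehicle group next (8.64). The lowest for Vcam1 was Rapa 1 mg/kg at day 14 (8.32). Of the 27 neighbouring pairs in each order, 1 for Krt8 and 1 for Cd44 lay farther apart than the larger of their SDs, and 0 for the others.

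Over the 28 group means, the Pearson correlation of Vim was 0.76 with Fblim1, 0.74 with Krt8 and 0.69 with Cd44, and that of Krt8 was 0.65 with Fblim1 and -0.33 with Krt19. Among all genes tested, the one most like Vim was S100a10 (0.89), a partner of annexin A2. The genes most like the others were Myc (0.81) for Krt8, Apoh (0.71), one of the liver markers, for Krt18 and Emp1 (0.73) for Krt19. The group with the highest Krt18 mean, CsA 25 mg/kg at day 1, held arrays with high Alb. Ppp1r14b (0.90) was most like Cd44, followed by the tight junction claudin Cldn4 (0.88). Gpnmb (0.82) was most like Fblim1 and Trim5 (0.90) most like Vcam1. All these correlations are descriptions over groups that share arrays and normalization.

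Genes around the members were followed through lists. For comparison with every list count below, 10.5% of all genes were called higher and 10.7% lower in CsA 25 mg/kg at day 28. The shares were 8.73% and 7.29% in FK506 6 mg/kg, and 7.57% and 8.16% in Rapa 10 mg/kg. Those of CsA 25 mg/kg include the array that held the 0 values and were not recounted without it. In a list of 19 tested genes of tubule progenitors and of the switch between epithelial and mesenchymal state, 12 rose and 1 fell in CsA 25 mg/kg at day 28, 11 rose and 0 fell in FK506 6 mg/kg, and 5 rose in Rapa 10 mg/kg, with median changes of 0.54, 0.45 and 0.20 beside 0.01, 0.01 and -0.01 over all genes. S100a4, a calcium-binding protein of motile cells, rose by 1.46 in CsA 25 mg/kg and 0.71 in FK506 6 mg/kg, and S100a6 by 1.23, 1.08 and, in Rapa 10 mg/kg, 0.67. Anxa2 rose by 0.94 in CsA 25 mg/kg and 0.75 in FK506 6 mg/kg. Cdh1 (E-cadherin), an epithelial adhesion gene in this list, was among those that rose in Rapa 10 mg/kg (0.51, adjusted p = 0.000151). Of 12 partners of Fblim1 at adhesion sites, 5, 4 and 4 rose in CsA 25 mg/kg, FK506 6 mg/kg and Rapa 10 mg/kg, with medians of 0.21, 0.14 and 0.07, among them the integrin Itgb1 by 0.59, 0.51 and 0.44. The focal adhesion protein Zyx fell by 0.33 in Rapa 10 mg/kg (adjusted p = 0.0275).

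Of 9 tested genes of Cd44 ligands, hyaluronan synthesis and membrane linkers, 3 rose in CsA 25 mg/kg, 3 in FK506 6 mg/kg and 2 in Rapa 10 mg/kg at day 28, where 2 also fell, and the medians were 0.13, 0.20 and -0.02. Spp1 (osteopontin), a ligand of Cd44, rose by 2.20, 1.91 and 0.84, and the matrix proteoglycan Vcan by 1.21, 1.08 and 1.22. Of 10 genes that Vcam1 binds or that NF-kB regulates, 6 rose and 1 fell in CsA 25 mg/kg, 4 rose in FK506 6 mg/kg and 1 rose in Rapa 10 mg/kg, with medians of 0.59, 0.22 and 0.20, while Vcam1 itself passed in none of the 3. Icam1, the other endothelial integrin ligand, rose by 0.81 and 0.68, and Nfkbia, the inhibitor that NF-kB induces, by 0.78, 0.72 and, in Rapa 10 mg/kg, 0.58 (adjusted p = 0.0391). Of 8 genes of the Sox9 network, 0 were called in CsA 25 mg/kg and FK506 6 mg/kg and 2 rose in Rapa 10 mg/kg, where Ccn2 rose by 1.05 (medians 0.09, 0.02 and 0.12).

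Among 3 other keratins tested, none rose and Krt17 fell by 0.90 in CsA 25 mg/kg and 0.76 in FK506 6 mg/kg; without the array that held the 0 values, the CsA value was -0.44 and did not pass (adjusted p = 0.246). Krt7, a keratin of collecting duct and other ducts, fell by 0.33 in FK506 6 mg/kg (adjusted p = 0.00101) and by 0.28 in Rapa 10 mg/kg (adjusted p = 0.00354). Of 15 desmosome and other intermediate filament genes, 5 rose and 1 fell in both CsA 25 mg/kg and FK506 6 mg/kg, and 2 rose in Rapa 10 mg/kg (medians 0.12, 0.14 and 0.04). Ppl (periplakin), which anchors keratin and vimentin filaments, rose by 1.18, 1.18 and 0.98, and the desmosomal cadherin Dsg2 by 0.78 in CsA 25 mg/kg and 0.75 in FK506 6 mg/kg. Dst fell by 1.75 in CsA 25 mg/kg, but without the array that held the 0 values the change was -0.12 (adjusted p = 0.282). Of 21 differentiated proximal tubule genes, 7 fell in CsA 25 mg/kg, 4 in FK506 6 mg/kg and 5 in Rapa 10 mg/kg, and none rose (medians -0.17, -0.04 and -0.12), where 10.7%, 7.29% and 8.16% of all genes were called lower. Gatm, the first enzyme of creatine synthesis, fell by 0.66, 0.92 and 0.62, and the phosphate transporter Slc17a3 fell by 0.52 in FK506 6 mg/kg and 0.56 in Rapa 10 mg/kg. Hnf4a, a transcription factor that maintains the proximal tubule state, fell by 2.31 in CsA 25 mg/kg, and was -0.28 without the array that listed it at 0 (adjusted p = 0.00125).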

How the data were processed

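The authors deposited 1 intensity value per probe set and array of 120 Rat 230 2.0 arrays, 1 per rat. Per the labels, RNA was extracted with RNeasy kits, labelled with a one-cycle biotin kit and scanned with GCOS; how the intensity values were summarised and scaled is not given in the sources used here. Of 31099 probe sets, 57 controls were left out of the gene tests, 20826 mapped to 1 gene, 436 to several and 9780 to none, by an annotation of the platform that can be old. Values became log2(intensity + 16) and were quantile normalized. Each gene was read from its probe set with the highest mean, and the 25% of genes with the lowest mean were left out.

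One limma model (limma 3.58.1, R 4.3.3; lmFit and eBayes) had a mean for each of 28 groups, 92 residual and 2.96 prior degrees of freedom, and gave 58 comparisons with Benjamini-Hochberg adjustment over 10663 genes each. The model was tested on simulated data. With intensities there are no counts, so the number of arrays limits the precision. Named genes are the 8 members, the called genes of each list with the largest changes (up to 4 per comparison), and the 3 genes most like each member. The members and lists were chosen with earlier results of these data known. The labels give each rat its own identifier.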

Additional observations from a re-analysis of the deposited data

Results flagged for a closer look

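In groups of 4 to 6 rats, 13 of 189 combinations of member and group had 1 rat far from the others by Dixon's 95% limit, where chance would give 9.45. In Vim, CsA 25 mg/kg day 28 replicate 4 was at a log2 level of 11.28 (others 10.23 to 10.29) and Rapa 1 mg/kg day 28 replicate 4 at 11.32 (others 9.74 to 10.25). The same Rapa rat was at 11.34 in Krt8 (others 10.46 to 10.77), and the same CsA rat at 8.39 in Cd44 (others 8.07 to 8.09). In Krt18, FK506 6 mg/kg day 28 replicate 2 was at 8.24 (others 8.52 to 8.59), and 1 vehicle rat stood apart on each of 3 days: replicate 2 at day 1 at 8.46 (others 8.20 to 8.24), replicate 1 at day 7 at 7.96 (others 8.72 to 8.80) and replicate 2 at day 14 at 8.03 (others 8.25 to 8.26). In Fblim1, Rapa 10 mg/kg day 1 replicate 2 was at 4.83 (others 6.14 to 6.33) and FK506 0.6 mg/kg day 1 replicate 4 at 4.37 (others 5.60 to 5.84). In Vcam1, CsA 25 mg/kg day 1 replicate 4 was at 9.33 (others 8.95 to 8.99), Rapa 1 mg/kg day 1 replicate 3 at 9.39 (others 8.54 to 8.68) and vehicle day 28 replicate 2 at 8.58 (others 8.90 to 9.01).

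The effect against vehicle at day 28 minus that at day 1 passed the limma interaction test for 5 pairs of member and drug. It was 1.46 for Cd44 and 1.89 for Fblim1 in CsA 25 mg/kg, 0.59 for Krt8 and 1.92 for Fblim1 in FK506 6 mg/kg, and 1.25 for Fblim1 in Rapa 10 mg/kg.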

How the results depend on the processing

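Of the 42 calls of a member, 21 held under all 10 other settings (offset, normalization, dim filter, probe set, model and array choices), 20 held when any single rat of the vehicle, high-dose or day 28 low-dose groups was left out, 18 held under both, and 0 reversed. For 1 of these 20, Vcam1 in FK506 0.6 against Rapa 1 mg/kg at day 14, no rat was left out. The count in FK506 6 mg/kg against vehicle at day 28 was 2, in place of 4, with the hybridization controls as a covariate: Vim (0.48, adjusted p = 0.104) and Cd44 (0.47, adjusted p = 0.235) lost their calls. With single rats left out, the count of day 28 minus day 1 effects ran from 3 to 6, with 3 without vehicle day 1 replicate 2, the count against vehicle from 15 to 20, that between doses from 5 to 6 and that between drugs from 10 to 16. Without the array that held the 0 values, Fblim1 in CsA 25 against Rapa 10 mg/kg at day 28 was 0.80 (adjusted p = 0.0697), and Vcam1 in Rapa 1 mg/kg at day 28 was -0.33 (adjusted p = 0.199) with the hybridization controls. Krt18 in CsA 25 mg/kg at day 1 passed without the dim filter (adjusted p = 0.0441). The comparison of Krt8 with Krt18 on the same array, the list genes without the array with 0 values and the members without the high Alb arrays were chosen after seeing the data. The causes were not tested. No paired analysis was possible because each rat gave 1 kidney sample and the replicate numbers follow accession order. Fblim1 is dim (30.7th percentile of gene means), and groups held 3 to 6 rats.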

Other observations

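Other genes whose group means followed the members most closely were Rpl11 (Pearson correlation 0.87 over 28 group means) and Flot2 (0.85) for Vim, Pabpc4 (0.78) and the membrane linker Ezr (0.78) for Krt8, Tes (0.86), a focal adhesion protein, for Cd44, and Tnfaip3 (0.81), an inhibitor of NF-kB signalling, and Morf4l2 (0.81) for Fblim1. Gstm2 (0.68) and Klkb1 (0.68) followed Krt18, Por (0.71) and Arfgap3 (0.68) followed Krt19, and Comtd1 (0.87) and the proteasome subunit Psma5 (0.87) followed Vcam1. Between Krt18 and Krt19 the correlation was 0.20.

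Among the NF-kB list, Birc3 rose by 1.54 in CsA 25 mg/kg and 1.12 in FK506 6 mg/kg at day 28, and the chemokine Ccl2 rose by 0.84 in CsA 25 mg/kg. Among Cd44 list genes, Mmp9 fell by 1.67 in Rapa 10 mg/kg at day 28, and the hyaluronan receptor Hmmr fell by 0.61. Of 5 distal convoluted tubule markers, 5 were lower in CsA 25 mg/kg, 4 in FK506 6 mg/kg and 0 in Rapa 10 mg/kg at day 28. Of all genes, 10.7%, 7.29% and 8.16% were called lower there.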
